A study of Mus musculus with 66 samples.

Results

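Blood of mouse pups was compared between postnatal day 17 (P17) and postnatal day 12 (P12) after exposure to 75% oxygen. These 22 arrays, 12 of P17 and 10 of P12, were chosen by their age and oxygen labels from the 66 arrays of the series. All pups were C57BL/6 and each array holds the blood mononuclear cells of a single mouse, separated on a density gradient. Per the study's methods, litters stayed in the chamber until P12 and were then kept in room air, so that the P12 pups were sampled at the end of the exposure and the P17 pups after the return. Age and time in room air therefore cannot be told apart within these 2 groups. Room air (normoxia) pups of the same ages, 11 on P12 and 12 on P17, are set beside them. Whole litters were assigned to oxygen, and the sample titles do not name the litter. Littermates may thus be among the mice, which were tested as independent. Hyperoxia here names the pups that came from 75% oxygen, also after their return.

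Every array carried blood RNA in 1 dye and a commercial mouse reference RNA in the other, and a value here is the log2 ratio of blood to reference. The labels give Cy5 as the blood channel, while the intensities place the blood RNA in Cy3. Over all 66 arrays of the series Hba-a1, the alpha globin of red cells, lay between 17.65 and 18.17 in log2 intensity in Cy3. In Cy5 it lay between 10.08 and 12.23. The leukocyte gene Ptprc lay between 8.39 and 13.46 in Cy3 and between 7.30 and 8.24 in Cy5. Cy3 was therefore read as blood, and every direction given here would turn round if the labels were right.

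Oxygen-induced retinopathy is a model of the retinal disease of preterm infants: high oxygen stops the growth of retinal vessels, and the return to room air makes the poorly supplied retina hypoxic. Blood of this age is itself changing, since red cell production moves towards the bone marrow and the white cells of the newborn mature. A mononuclear preparation should hold lymphocytes and monocytes and can also carry young red cells, platelets and granulocytes. Because the samples are mixtures of cells, fewer cells of a type and less RNA per cell cannot be told apart.

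Of 28722 probes tested with the moderated test of limma, 2636 (9.18%) passed an adjusted p of 0.05, 820 of them higher on P17 and 1816 lower. With each gene represented by its brightest probe, 391 of 13879 genes (2.82%) rose and 782 (5.63%) fell, and the median change over all genes was 0.00. Median centring moved the median of all probes to -0.18 and that of genes to -0.25, and the split of called probes became 44 higher and 1579 lower. It was 764 and 2699 with the scanner software's signals, and 801 and 2273 with the Cy3 channel alone. The median of all genes is thus the level against which a small rise has to be read.

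On average 49.6% ± 4.29 (SD, n = 10) of probes stood well above background in Cy3 on P12 and 44.7% ± 5.85 (n = 12) on P17, a difference of -4.95 percentage points (2-sided permutation p 0.0402, adjusted over 6 measures 0.241). Replicate 7 of P17 reached 59.0%. With this share as a covariate 229 probes passed, 52 higher and 177 lower, and of the 61 called genes picked by the naming rule 8 stayed past the threshold, besides those given with the lists put together after the values were seen. Its part in the results was not tested. Of these arrays 9 of 10 on P12 and 11 of 12 on P17 were scanned on the same day, and among those alone 1446 probes passed. With slide as a block the count was 1269, of which 394 were higher. The count was 1344 without P12 replicate 3, 4466 without P17 replicate 3 and 5017 without P17 replicate 7. After median centring with slide as a block together, 9 probes passed.

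Genes of the stefin family showed the greatest falls. Stefins are cystatin A-like inhibitors of cysteine proteases, encoded side by side on chromosome 16 and made in the mouse mainly by myeloid cells. Of 9 genes of the family tested, 7 fell, against 5.63% of all genes, and none rose, with a median change of -1.57 against 0.00 over all genes. Of the 7, Csta3 entered the test through the P12 arrays alone. This list was put together after the values were seen. Cstb, the stefin B of most tissues, was at -0.29 (adjusted p 0.168).

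The promoters of the stefin genes are shown because their members moved together and because their likeness bears on how the probes can be read. Each line gives 100 bases from RefSeq (GRCm38.p6), on the strand of the gene and ending near its start, with the letters TTTAAAA in capitals where they occur.
Stfa1: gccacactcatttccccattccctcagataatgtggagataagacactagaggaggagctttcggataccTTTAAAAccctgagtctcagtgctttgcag
Cstdc5: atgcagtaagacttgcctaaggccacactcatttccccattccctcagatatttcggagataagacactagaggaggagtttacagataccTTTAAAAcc
Stfa2: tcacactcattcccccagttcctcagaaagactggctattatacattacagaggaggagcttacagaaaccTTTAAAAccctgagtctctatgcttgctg
Stfa2l1: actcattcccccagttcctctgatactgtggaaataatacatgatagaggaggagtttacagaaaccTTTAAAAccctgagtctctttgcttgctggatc
Cstdc4: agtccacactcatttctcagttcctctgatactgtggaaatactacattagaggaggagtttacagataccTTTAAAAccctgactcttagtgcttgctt
Stfa3: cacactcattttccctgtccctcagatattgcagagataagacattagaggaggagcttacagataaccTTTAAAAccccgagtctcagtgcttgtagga
Csta2: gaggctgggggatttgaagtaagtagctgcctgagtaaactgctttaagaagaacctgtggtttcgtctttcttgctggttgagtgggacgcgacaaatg

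The windows lie on chromosome 16 at chr16:36277048-36277147 (plus strand) for Stfa1, chr16:36367571-36367670 (minus) for Cstdc5, chr16:36408364-36408463 (minus) for Stfa2 and chr16:36156711-36156810 (plus) for Stfa2l1. Those of Cstdc4, Stfa3 and Csta2 are chr16:36184112-36184211 (plus), chr16:36455393-36455492 (minus) and chr16:36221462-36221561 (plus). Over the 250 bases before the start, searched on both strands, 7 of the 9 family promoters in the table hold TTTAAAA, against 9.16% of 27025 genes. These letters were added to the search for the stefin list alone, after its values were seen. Many of the promoters are alike and are not separate cases, so this share is a description and not a test. Csta2 lacks these letters in its window and fell as well. The promoters of Stfa1 and Cstdc5 were identical at 96.1% of aligned bases and those of Stfa2 and Stfa2l1 at 92.3%. The genes are near copies, whether a probe binds RNA of several of them was not tested, and their values are uncertain as single genes.

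Cstdc5 lay at 2.91, 4.35 and 6.35 on P12 (lowest, median and highest log2 ratio of 10 mice) and at 1.12, 2.13 and 3.59 on P17 (12 mice). In 10 of the 12 P17 mice it was below every P12 mouse. The change was -2.17 ± 0.38 (SE), 4.48-fold, with an adjusted p of 0.0042.

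Stfa1 followed the same course, from 2.82, 4.29 and 6.00 to 1.08, 1.98 and 3.28, a change of -2.12 ± 0.36 (adjusted p 0.00415). Stfa2 went from 1.81, 3.15 and 5.19 to 0.52, 1.07 and 2.34, a change of -1.97 ± 0.33 (adjusted p 0.004). For both genes 10 of 12 P17 mice were below all P12 mice.

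Csta2, another cystatin A-like gene, lay at 1.03, 1.87 and 3.48 on P12 and at 0.11, 0.32 and 0.82 on P17. The groups did not overlap, which was so for 2 of the 13879 genes (0.0144%). Its change was -1.61 ± 0.24, 3.06-fold (adjusted p 0.0033). Stfa2l1 changed by -1.57 ± 0.33, Cstdc4 by -1.54 ± 0.32 and Csta3, above background on 4 of 12 P17 arrays, by a fitted -0.62 ± 0.19. Stfa3 was at -0.88 ± 0.34 with an adjusted p of 0.0982.

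In room air pups the stefin list had a median change of -1.46. Stfa1 changed there by -1.71 and Cstdc5 by -1.82, and the difference between the oxygen groups had an adjusted p of 0.686 and 0.758. On P28 the mean level of Stfa1 was 0.25 in hyperoxia and 0.52 in normoxia, below both earlier ages. With the share of probes above background as a covariate, 4 of the 9 genes stayed past the threshold (Cstdc5, Stfa1, Stfa2 and Csta2), and the list median was -1.23.

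**Figure D1:**
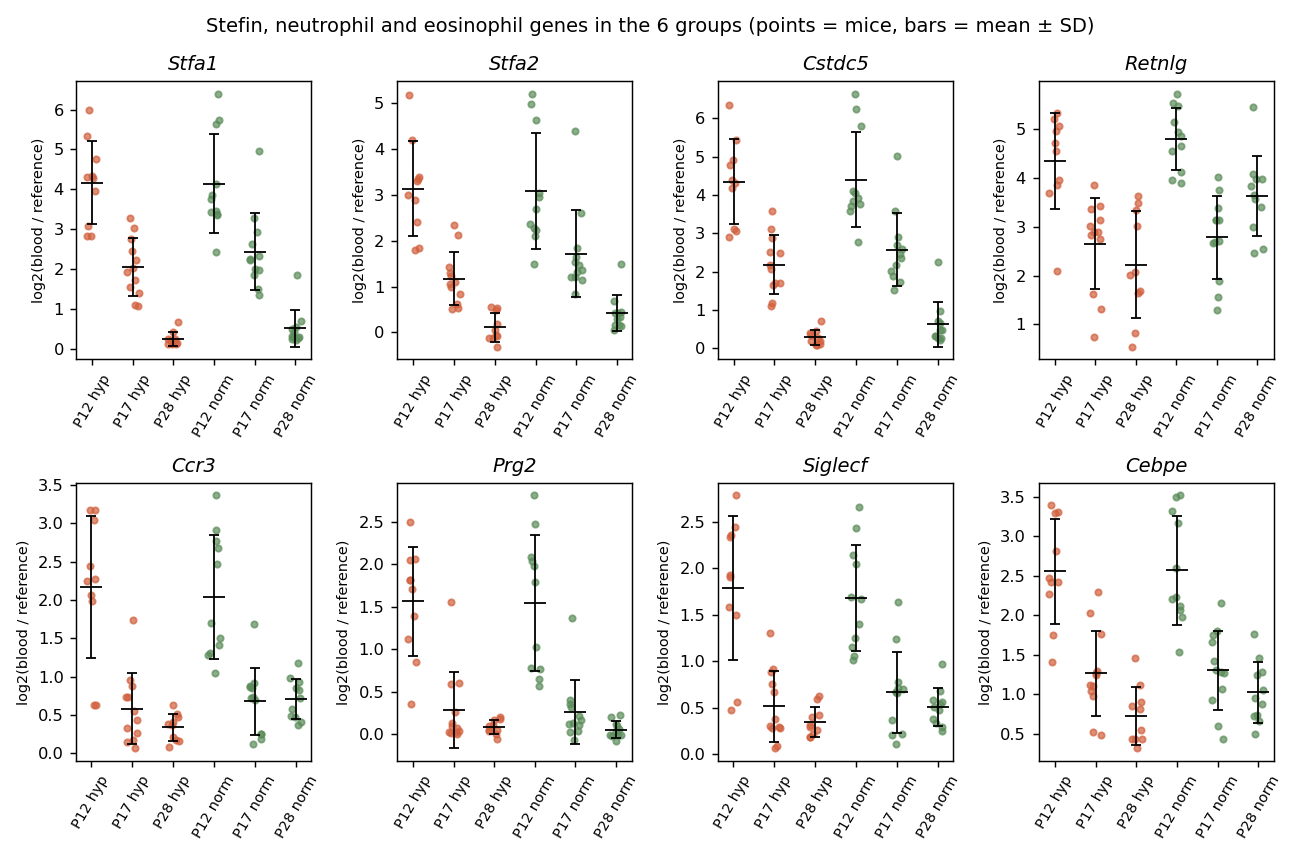
Log2 ratio of blood to reference RNA (vertical axes) in the 6 groups of age and oxygen for 8 granulocyte genes. Points are mice, orange for hyperoxia and green for normoxia, and bars are mean ± SD. Stfa1, Stfa2 and Cstdc5 step down from P12 to P17 and again to P28 in both oxygen groups, and Prg2 is near 0 from P17 on.

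Other genes of late neutrophil maturation divided. The list of late granule and stefin genes had 6 of 19 members lower, against 5.63% of all genes, none higher, and a median of -0.46. Besides 4 stefins already counted these were Retnlg and Csf3r. Retnlg, a resistin-like protein of neutrophils, changed by -1.69 ± 0.39 (adjusted p 0.0126), from 2.09, 4.64 and 5.33 to 0.73, 2.89 and 3.86. Only 3 of 12 P17 mice were below the lowest P12 mouse, and the change was -0.07 with the scanner software's signals. Csf3r, the receptor of granulocyte colony-stimulating factor, changed by -0.81 ± 0.19.

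Abundant neutrophil genes of the cytosol and the granules did not pass the test. S100a9, whose product fills the neutrophil cytosol, was at -0.13 ± 0.31, S100a8 at -0.49 ± 0.39, lactoferrin (Ltf) at -0.02 ± 0.30, the cathelicidin Camp at -0.03 ± 0.32 and Ngp at 0.08 ± 0.26. S100a9 lay between 4.31 and 6.46 on P12 and between 4.35 and 6.54 on P17. Its ranges at the 2 ages thus overlapped almost fully. In the whole list of late granule and stefin genes 15 of 19 changes were below 0. After median centring the list median was -0.81, with 7 lower. Whether the share of neutrophils changed was not tested. Cebpe, a transcription factor of the final steps of granulocyte maturation, fell by 1.29 (SE 0.25, adjusted p 0.00529), from 1.41, 2.44 and 3.40 to 0.49, 1.18 and 2.29.

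Further genes of myeloid cells were among the 12 greatest falls. Adam8, a metalloprotease of the leukocyte surface, lay at 0.17, 1.69 and 2.32 on P12 and at -1.02, -0.40 and 1.11 on P17, a change of -1.55 ± 0.31 (adjusted p 0.0068). Its other probe was at -0.11. Inpp5j, a phosphatase of inositol lipids, changed by -1.41 ± 0.24 (adjusted p 0.004), and its other probe was also called. Lilrb4a, an inhibitory receptor of myeloid cells, changed by -1.39 ± 0.33 (adjusted p 0.0137). Each of them had a change of -1.13 or lower in room air pups as well.

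Of 20 eosinophil and basophil genes, in a list put together after the values were seen, 10 were lower, against 5.63% of all genes, and none higher, with a median of -0.71. The other 10 did not pass. Of the 10 that fell, 2 (Prg2 and Epx) entered the test through the P12 arrays alone and are given as a description. The mean level of the list ran from 1.04 to 2.07 on P12 and from 0.50 to 1.45 on P17. Ccr3, the receptor that draws eosinophils to eotaxin, lay at 0.63, 2.26 and 3.18 on P12 and at 0.06, 0.49 and 1.75 on P17. Its change of -1.58 ± 0.29 was a 3.00-fold fall (adjusted p 0.00471), and 7 of 12 P17 mice were below all P12 mice.

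Prg2, the major basic protein of eosinophil granules, lay at 0.36, 1.77 and 2.5 on P12 and at 0.00, 0.09 and 1.55 on P17, where 4 of 12 arrays were above background. The fitted change was -1.28 ± 0.22, with P17 mostly at background. Siglecf, a surface lectin of mouse eosinophils, changed by -1.27 ± 0.24 (adjusted p 0.00534), as did its other probe, by -0.64. The eosinophil ribonucleases Ear1, Ear2 and Ear6 changed by -0.77, -0.88 and -0.77, although Ear2 was at 0.75 with the scanner software's signals.

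Eosinophil peroxidase (Epx) was above background on 9 of 10 arrays on P12 and on 1 of 12 on P17, with a fitted change of -0.28. Of basophil genes, Mcpt8, a granule protease, and Il4, a cytokine that basophils make, both changed by -0.78. Defining genes that did not pass were Il5ra (-0.33, adjusted p 0.14), Fcer1a (-0.12, 0.11), Ms4a2 (-0.17, 0.0659), Cpa3 (-0.52, 0.478) and Gata2 (0.30, 0.297). In normoxia the list median was -0.60, with Ccr3 at -1.36 and Prg2 at -1.28. With the share of probes above background as a covariate 3 of 20 genes passed.

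The 2 greatest rises, of Atf5 and Trib3, were in genes of the amino acid and integrated stress response, the programme in which phosphorylation of an initiation factor favours translation of ATF4 and so turns on genes of amino acid supply. Of the 12 genes with the greatest rise 3 are on the list of this response. Of its 24 genes tested 9 rose and none fell, with 8 changes below 0, against 2.82% and 5.63% of all genes. The list median was 0.33, and it was -0.01 after median centring, where the median of all genes was -0.25 and 3 of the 24 passed. Its mean level ran from -1.19 to -0.50 on P12 and from -0.93 to -0.06 on P17. Leaving out a mouse gave 6 to 10 genes higher, and within the main scan day it was 7.

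Atf5, a transcription factor of the same family as ATF4, lay at -2.53, -0.75 and 1.56 on P12 and at -0.72, 2.33 and 3.17 on P17. In 9 of the 12 P17 mice it was above every P12 mouse, and its groups overlapped through the other 3. The change was 2.31 ± 0.54, 4.97-fold (adjusted p 0.0124), and the other probe gave 2.39 and was also called.

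Trib3, a pseudokinase induced by ATF4 and CHOP, lay at -3.56, -2.82 and -1.67 on P12 and at -2.6, -0.49 and 0.75 on P17. Again 9 of 12 P17 mice were above all P12 mice. The change was 1.97 ± 0.41, 3.92-fold (adjusted p 0.00831).

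Mthfd2, which oxidises methylene-tetrahydrofolate in mitochondria, went from -1.33, -0.38 and 0.79 to -0.25, 1.17 and 2.67, a change of 1.45 ± 0.35 (adjusted p 0.015), and its other probe was called at 1.39. Shmt2, the mitochondrial serine hydroxymethyltransferase, changed by 0.85 ± 0.20 (adjusted p 0.0126). Pck2, the mitochondrial phosphoenolpyruvate carboxykinase, which is not on the list, rose by 1.51 ± 0.34 (adjusted p 0.0107), while its other probe was at 0.20 and was not called.

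Of tRNA ligases, Aars (alanine) rose by 0.62 ± 0.15 and Sars (serine) by 0.39 ± 0.11. Eif4ebp1, a translation inhibitor induced by ATF4, rose by 1.01 ± 0.27. Ddit3, which encodes CHOP, rose by 0.40 ± 0.13 and Cebpg by 0.28 ± 0.07, although Cebpg was at -0.09 after median centring. Among the rest, Atf4 itself was at 0.65 ± 0.28 (adjusted p 0.131) and Asns, the asparagine synthetase, at 0.86 ± 0.61 (adjusted p 0.364). Asns ranged from -3.38 to 0.97 on P12 and from -2.96 to 1.49 on P17. Phgdh, Psat1 and Psph of serine synthesis were at -0.23, -0.20 and -0.10, none of them called.

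In room air pups the list had a median change of -0.03. Atf5 was at a mean of 1.28 on P12 and 2.04 on P17 there, against -0.37 and 1.94 in hyperoxia. Trib3 was at -1.11 and -0.81, against -2.68 and -0.71. The P12 hyperoxia group thus had the lowest mean of the 4 younger groups for both genes, and on P28 the means were -3.05 and -3.06 for Atf5 and -3.05 and -3.02 for Trib3 in hyperoxia and normoxia. The differences of the changes, 1.55 for Atf5 and 1.67 for Trib3, had adjusted p of 0.231 and 0.124. For Sars the change in normoxia was -0.29 and the difference of 0.67 passed (adjusted p 0.038). With the share of probes above background as a covariate none of the 24 genes passed, and Trib3 kept a change of 1.24 (adjusted p 0.054).

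Red cell genes gave 5 calls, all of them rises. In the 4 lists of red cell genes that were tested, 1 of 17 genes of haem synthesis and iron, 3 of 19 of red cell membrane and enzymes, 1 of 16 of red cell transcription and maturation and none of 5 globins rose, against 2.82% of all genes, and none fell. Their medians were 0.39, 0.48, 0.41 and 0.25. With the share of probes above background as a covariate none of these calls stayed, and the medians turned to -0.04, -0.09, -0.10 and -0.39. Cpox, which makes protoporphyrinogen in haem synthesis, lay at -0.78, -0.37 and 0.61 on P12 and at -0.16, 1.18 and 3.36 on P17. In 10 of 12 P17 mice it was above all P12 mice, and the change was 1.82 ± 0.36, 3.53-fold (adjusted p 0.00673). In room air pups it was at a mean of 1.24 on P12 and 1.33 on P17, and the difference of 1.73 had an adjusted p of 0.0657.

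Of membrane proteins, the water channel Aqp1 rose by 1.32 ± 0.35 (adjusted p 0.0235), with 1.06 in normoxia (adjusted p 0.0308), the Rhesus-associated glycoprotein Rhag by 1.0 ± 0.29 and the adducin Add2 by 0.64 ± 0.20. Xpo7, an exportin that acts as red cell nuclei condense, rose by 1.07 ± 0.33, and its other probe was at -0.31. The abundant red cell genes did not pass. Hba-a1 was at 0.30 ± 0.36 and Alas2, the first enzyme of red cell haem synthesis, at 0.25 ± 0.32. Over all 66 arrays the intensity of Hba-a1 ranged more widely in Cy5 (10.08 to 12.23) than in Cy3 (17.65 to 18.17). This limits what its ratio says of blood RNA. With Cy3 alone the globin median was 0.00. None of the 19 membrane and enzyme genes passed after median centring or without P12 replicate 3. Without P17 replicate 7, 4 genes of haem synthesis and iron were higher, and of red cell transcription and maturation 4 were higher and 1 lower.

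Of platelet genes all 17 tested had a change above 0, with a median of 1.09 (0.75 after median centring), and none was called. Ppbp, a chemokine of platelet granules, was at 1.84 ± 0.59 (adjusted p 0.0511), Pf4 at 0.87 ± 0.55 and the integrin Itga2b at 1.29 ± 0.56. The mean level of the list ran from 0.36 to 4.78 on P12 and from 1.83 to 5.48 on P17. Without P17 replicate 3, the mouse at 1.83, 9 of the 17 passed. In normoxia the median was 0.85. The part of platelet RNA in the other results was not tested.

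Among the other genes with the greatest rise, Reep6, which shapes the endoplasmic reticulum, rose by 1.53 ± 0.37 (adjusted p 0.0141) and Mmp19, a matrix metalloprotease, by 1.5 ± 0.41 (adjusted p 0.0283). Tgfb1i1, an adaptor of focal adhesions, rose by 1.34 ± 0.39, Sytl4, a regulator of granule release, by 1.33 ± 0.39, and Gng5, a G protein subunit, by 1.32 ± 0.31. All 5 also had estimates above 0 in room air pups, from 0.65 for Tgfb1i1 to 1.20 for Mmp19, and none of them passed there.

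Markers of the main mononuclear cells had few calls, and against 2.82% and 5.63% of all genes such counts are near the background. None of 23 T cell genes, 13 of natural killer and cytotoxic cells and 20 of monocytes was called, with medians of 0.24, 0.02 and -0.26. The monocyte list had 14 of 20 changes below 0, with a median of -0.57 after median centring, and the T cell median was then -0.13. The T cell list's mean level ran from 0.18 to 3.09 on P12 and from 0.98 to 2.94 on P17. Of 21 B cell genes 1 fell and of 9 B cell progenitor genes 1 fell. Leaving out a mouse gave 0 to 4 lower B cell genes. None of 8 progenitor genes, 5 endothelial genes, 3 retina genes and 2 embryonic globins was called. Nor was any of 24 genes of cell division and 22 of DNA replication, with medians of -0.09 and -0.15. Of the 5 endothelial genes 3 were higher without P17 replicate 3 and 2 without P17 replicate 7.

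**Figure D2:**
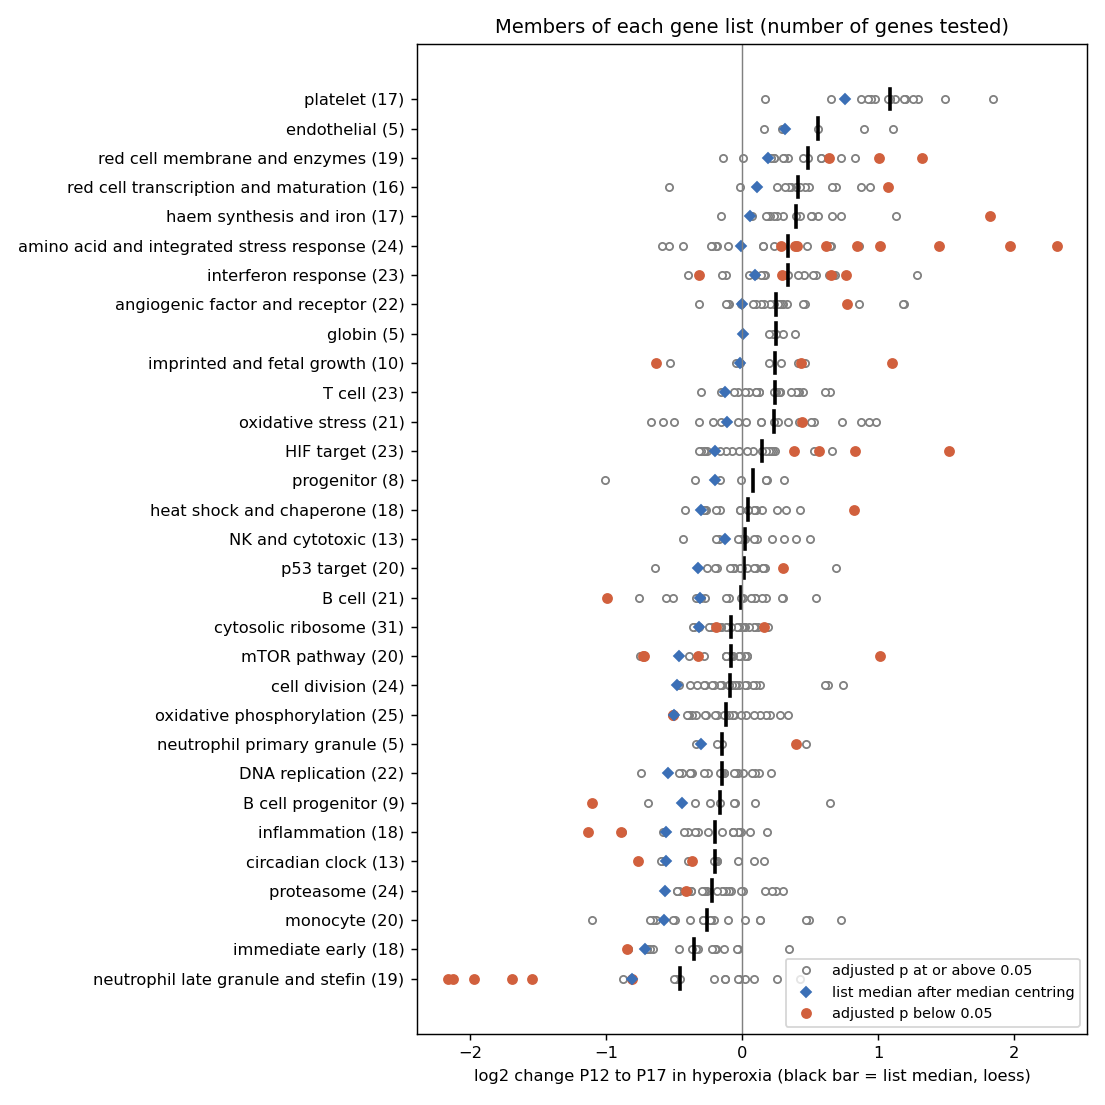
Log2 change from P12 to P17 in hyperoxia (horizontal axis) of each member of the gene lists with at least 5 genes tested, with the number tested in brackets and without the lists put together after the values were seen. Filled orange points passed an adjusted p of 0.05, open points did not, black bars are list medians and blue diamonds the medians after median centring. Of the lists shown, the stress response list holds the most called members, 9, and the platelet list has the highest median, 1.09, with none called.

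Of the 21 B cell genes 1, Ms4a1, was called, against 5.63% of all genes lower. The changes of the list were split, 10 above 0 and 11 below, with a median of -0.01. Ms4a1, which encodes CD20, went from 2.82, 4.15 and 5.15 to 2.22, 3.05 and 4.80, a change of -0.99 ± 0.29 (adjusted p 0.0371). No B cell gene was called lower with slide as a block, within the main scan day or without P12 replicate 3. Cd79a, a chain of the antigen receptor complex, did not pass (0.10 ± 0.18). Vpreb3, a chaperone of the receptor's light chain, changed by -1.11 ± 0.23 (adjusted p 0.00807), from 2.64, 4.03 and 4.62 to 2.14, 2.95 and 3.73.

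In a list of antigen receptor and survival genes put together after the values were seen, 7 of 16 fell, against 5.63% of all genes, none rose, and the median was -0.53. Tnfrsf13c, the receptor for the survival factor BAFF, changed by -1.15 ± 0.26 (adjusted p 0.0117), the adaptor Blnk by -1.07 ± 0.25, the inhibitory receptor Cd72 by -1.03 ± 0.26 and Plcg2, a phospholipase of receptor signalling, by -0.59 ± 0.17. Nfkbid, a nuclear partner of NF-kappaB, was below every P12 mouse in 10 of 12 P17 mice, at -1.12 ± 0.21 (adjusted p 0.00513). In normoxia the list median was -0.17. Vpreb3 was at -0.09 and Cd72 at 0.09 there, and the differences of -1.02 and -1.12 had adjusted p of 0.138 and 0.13. With slide as a block 3 of 16 passed, and with the share of probes above background as a covariate 1 did.

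Heat shock and chaperone genes gave 1 call among 18, a rise, where 2.82% of all genes rose, with a median of 0.04. Hsph1, a partner of HSP70 that helps it release nucleotides, lay at -1.42, -1.13 and -0.82 on P12 and at -0.73, -0.19 and 0.02 on P17, and it was, with Csta2, the other gene whose groups did not overlap. The change was 0.82 ± 0.10, 1.77-fold (adjusted p 0.000295). It was at 0.87 with the share of probes above background as a covariate (adjusted p 0.0022), while after median centring it was at 0.46 and did not pass (adjusted p 0.221). The other probe was called at 0.62. In room air pups the change was 0.34 (adjusted p 0.085), and the difference of 0.48 did not pass (adjusted p 0.13).

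Since the return from 75% oxygen is a relative fall in oxygen, targets of hypoxia-inducible factor were listed. Of 23 tested 4 rose, against 2.82% of all genes, none fell, and the median was 0.15 (-0.20 after median centring). With the scanner software's signals 3 were higher and 3 lower (median -0.04), and with Cy3 alone 2 and 2 (median -0.02). Leaving out a mouse gave 1 (without P12 replicate 3) to 5 higher (without P17 replicate 3 or 7) and 0 to 3 lower. Ndrg1, a stress-induced gene, lay at -3.69, -2.80 and -0.86 on P12 and at -3.18, -0.67 and 0.35 on P17, a change of 1.52 ± 0.44 (adjusted p 0.0339), with 1.11 in normoxia. Ddit4, an inhibitor of mTOR signalling, rose by 0.83 ± 0.24 and also in normoxia, by 1.04. Pfkl of glycolysis rose by 0.56 ± 0.14 and P4ha1, a collagen prolyl hydroxylase, by 0.38 ± 0.11.

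The best known targets did not pass: Vegfa was at 0.08 ± 0.14, the glucose transporter Slc2a1 at -0.32 ± 0.12 and Pgk1 at -0.02 ± 0.14. None of the 4 calls held with slide as a block, within the main scan day or after median centring. The letters ACGTG of the hypoxia response element stood in the promoters of 15 of 22 listed genes, against 18.5% of all genes, and in those of 2 of the 3 called genes with a promoter in the table. GCGTG stood in 16 of 22, against 30.9% (both strands, 250 bases before the start). These matches describe the list and not the change. Angpt1, a ligand that steadies vessels, was the single called gene of 22 angiogenic factors and receptors, where 2.82% of all genes rose, at 0.77 ± 0.24, with 0.99 in normoxia. None of the 22 passed with slide as a block, within the main scan day or after median centring, and 6 were higher without P17 replicate 3 or without replicate 7. Of 21 oxidative stress genes 1, the cytosolic superoxide dismutase Sod1, rose, by 0.44 ± 0.14, against 2.82% of all genes, and leaving out a mouse gave 0 (without P12 replicate 3) to 4 (without P17 replicate 3 or 7).

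Interferon genes gave 3 higher and 1 lower of 23, against 2.82% and 5.63% of all genes, with a median of 0.33. Leaving out a mouse gave 1 (without P12 replicate 3) to 6 higher (without P17 replicate 7). Usp18, which dampens interferon signalling, rose by 0.65 ± 0.18 and Ifit3, an antiviral effector, by 0.29 ± 0.09. Ddx58, the RNA sensor RIG-I, fell by 0.32 (SE 0.10). Isg15, a ubiquitin-like protein, was at 1.28 ± 0.47 (adjusted p 0.0862). After median centring none of the 23 passed.

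Inflammation and immediate early genes had medians of -0.20 and -0.35. Leaving out a mouse gave 1 to 4 lower inflammation genes (4 without P17 replicate 7) and 1 to 3 lower immediate early genes. Of 18 inflammation genes 2 fell, against 5.63% of all genes: Il6 by 1.14 (SE 0.25, adjusted p 0.0102), from 0.01, 1.10 and 2.25 to -0.44, -0.16 and 0.71 with 7 of 12 arrays above background on P17, and the chemokine Ccl3 by 0.89 (SE 0.24). With slide as a block neither passed (adjusted p 0.0707 and 0.106). Tnf was at 0.06 ± 0.06. Of 18 immediate early genes the AP-1 subunit Junb fell by 0.84 (SE 0.21, adjusted p 0.0192), and Fos was at -0.84 ± 0.37 (adjusted p 0.139). In normoxia Il6 changed by -0.27, Ccl3 by -0.04 and Junb by 0.00, and none of the 3 differences passed.

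A pair of genes of the aryl hydrocarbon receptor, a sensor of dietary and environmental ligands, fell in hyperoxia, out of 3 tested and against 5.63% of all genes. They were listed after their values were seen, and the third gene tested, the receptor's partner Arnt, was at -0.15 ± 0.10 (adjusted p 0.355). Ahr, the receptor, lay at -0.95, 0.11 and 0.66 on P12 and at -1.17, -0.94 and -0.75 on P17, a change of -0.96 ± 0.14 (adjusted p 0.0033). The 12 P17 mice lay within a narrow range and 6 of them were below all P12 mice. Tiparp, its target and feedback inhibitor, was below all P12 mice in 10 of 12 P17 mice, at -0.95 ± 0.17 (adjusted p 0.00428). In normoxia Ahr changed by -0.59 and Tiparp by 0.06. The difference passed for Tiparp, at -1.01 (adjusted p 0.03), and not for Ahr (adjusted p 0.22). With the share of probes above background as a covariate 2 of the 3 genes tested passed.

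RNA-binding proteins that respond to mild cold fell too, in a list chosen after the values were seen, with 4 of 5 lower, against 5.63% of all genes, and a median of -0.80 (-0.07 in normoxia). Rbm3 went from 0.37, 0.74 and 1.41 to -0.78, 0.01 and 0.56, a change of -0.86 ± 0.15 (adjusted p 0.00428). Cirbp went from 0.18, 0.60 and 1.12 to -0.66, -0.29 and 0.47, a change of -0.80 ± 0.15 (adjusted p 0.00448). For each of them 9 of 12 P17 mice were below all P12 mice. Hnrnpdl changed by -0.96 ± 0.19 and the splicing factor Srsf5 by -0.46 ± 0.13, while the splicing kinase Clk1 was at -0.76 (adjusted p 0.0551). The difference from normoxia passed for Hnrnpdl, at -1.11 (adjusted p 0.03), and for Cirbp it was -0.73 (adjusted p 0.1). With the share of probes above background as a covariate 2 of the 5 genes passed. It was 3 with slide as a block, within the main scan day or after median centring.

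Of 20 genes of the mTOR pathway 3 fell and 1, Eif4ebp1, rose, against 5.63% and 2.82% of all genes. Leaving out a mouse gave 1 (without P12 replicate 3) to 7 lower (without P17 replicate 7). Tsc1, an inhibitor of mTOR, fell by 0.33 (SE 0.09), with 0.10 in normoxia and a difference of -0.42 that passed (adjusted p 0.041). The kinase Rps6kb1 fell by 0.72 (SE 0.23). Deptor, an mTOR inhibitor, was at 0.03 ± 0.12 (adjusted p 0.872) and turned to -0.21 after median centring and -0.22 with the scanner software's signals. Nol4, a nucleolar protein gene, did not pass the filter on dim probes.

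The remaining lists had few calls, to be read against 2.82% of all genes higher and 5.63% lower. Leaving out a mouse gave 0 to 5 lower genes of oxidative phosphorylation, 0 to 4 of the proteasome, 0 to 7 of the ribosome and 2 to 5 of the clock. Of 25 oxidative phosphorylation genes Atp5c1 and Uqcrfs1 fell, both by 0.51, and of 24 proteasome genes Psma3 fell by 0.41. None of these falls passed with slide as a block, within the main scan day or after median centring. Of 31 ribosomal genes Rplp1 was called higher at 0.16, although at -0.11 after median centring, and Fau lower at -0.19. Of 10 imprinted and fetal growth genes Mest rose by 1.10 ± 0.31 and Afp, the fetal albumin, by 0.43 ± 0.10, while Igf2bp3, a fetal RNA-binding protein, fell by 0.63 (SE 0.15). Of 13 clock genes Tef fell by 0.77 (SE 0.16) and Cry2 by 0.37 (SE 0.08). Of 5 genes tested from a list of neutrophil primary granules the single call was Igfbp4, at 0.39, which encodes a secreted binding protein of insulin-like growth factors and not a granule protein. No sex-linked gene among 5 was called. The study counts more females than males among its hyperoxia pups of P12 and the reverse on P17. The sample titles do not give the sex. With the X-linked gene Xist as a covariate 2445 probes passed, and 54 of the 61 called genes picked by the naming rule stayed called.

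The change with age was also fitted in room air pups, where 732 of 29327 probes (2.5%) passed. A test of the difference between the 2 changes called 70 of 29327 probes (0.239%), 34 of them more positive in hyperoxia. It rests partly on the P17 normoxia arrays, of which 8 of 12 were scanned on the other day, and 9 probes passed with scan day as a block. None passed after median centring. The titles of 10 of 11 P12 normoxia arrays carry the mouse numbers of the P12 hyperoxia arrays, while their data were deposited under other mouse numbers, so that which mouse each of these arrays holds is uncertain.

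The 6 genes with the smallest p of this difference had estimates of opposite sign in the 2 kinds of pups, which describes how they were chosen, and 3 of the 6 passed in hyperoxia. Trp53, the tumour suppressor p53, lay at -1.32, -1.09 and -0.88 on P12 and at -1.28, -0.69 and -0.46 on P17 in hyperoxia, a change of 0.30 ± 0.08 (adjusted p 0.0295) that was -0.04 after median centring and did not pass with slide as a block (adjusted p 0.0855) or within the main scan day (0.0733). In normoxia it changed by -0.43, and the difference was 0.73 (adjusted p 0.0057). Its mean was -0.81 and -1.24 in normoxia on P12 and P17, so the order of the oxygen groups was opposite at the 2 ages. Of 20 listed p53 genes it was the single one called, where 2.82% of all genes rose and 5.63% fell. The list had 10 changes above 0 and 10 below, with a median of 0.02.

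Cul4b, a scaffold of ubiquitin ligases, was at -0.30 in hyperoxia, where it did not pass, and at 0.45 in normoxia, a difference of -0.75 (adjusted p 0.012). Nrd1, a metalloprotease, was at 0.26 (adjusted p 0.0592) and -0.34, a difference of 0.61. Cdk13, a kinase of RNA polymerase II, was at 0.14 (adjusted p 0.253) and -0.53, a difference of 0.66. The hyperoxia changes of Nrd1 and Cdk13 were -0.10 and -0.23 after median centring.

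The other 2 fell in hyperoxia. Pcm1, a protein of the centriolar satellites, changed by -0.31 ± 0.08 and by 0.16 in normoxia, and Zc3h6, a zinc finger gene, by -0.34 ± 0.06 and by 0.21. For Zc3h6 10 of 12 P17 mice were below all P12 mice, and the change passed with the share of probes above background as a covariate. Among genes of the stefins, eosinophils, haem synthesis and red cell membrane named above, no difference from normoxia passed.

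**Figure D3:**
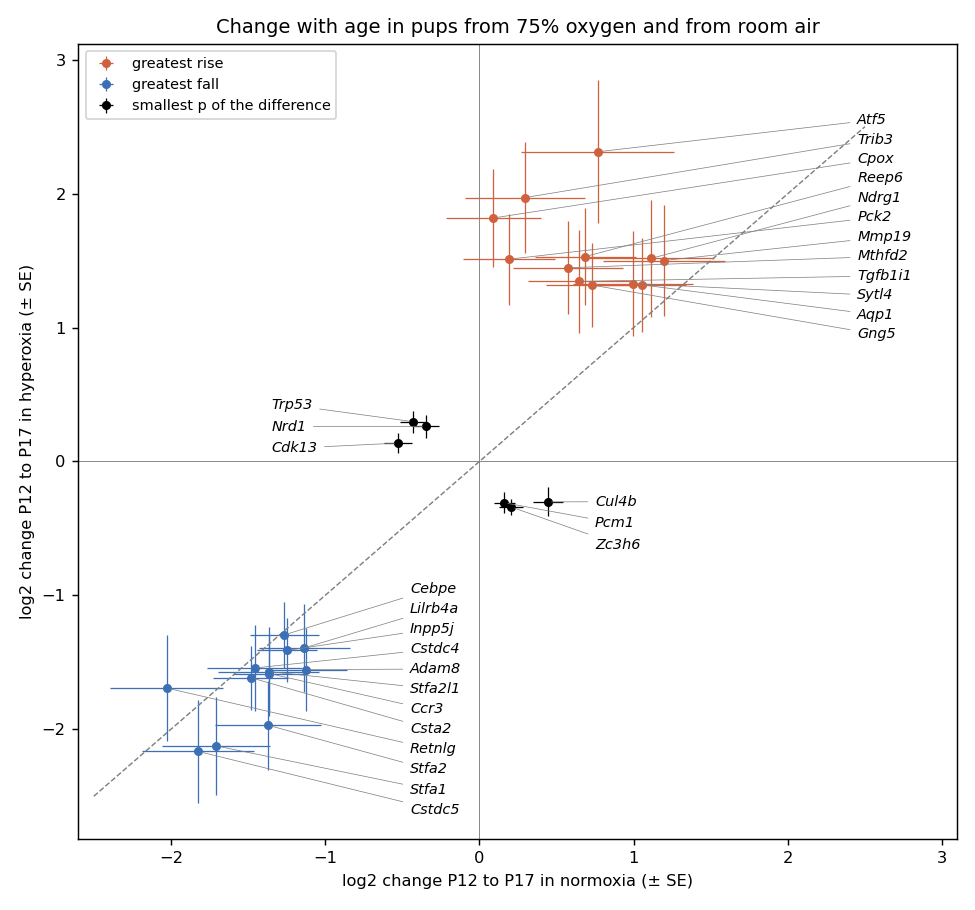
Log2 change from P12 to P17 in hyperoxia (vertical axis) against that in normoxia (horizontal axis) for the genes with the greatest rise and fall and those with the smallest p of the difference. Points are estimates, bars are ± SE, and the dashed line marks equal change. The falling genes lie near the dashed line, Trib3, Cpox and Pck2 have normoxia changes of 0.30, 0.09 and 0.19, and the 6 black points, chosen by their difference, lie in the quadrants of opposite sign.

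A group of probes moved as a block and needs to be read apart. On the 22 arrays 66 probes had a correlation above 0.95 with the brightest probe of Milr1, and all 66 were called lower, by 1.0 at the median. They stand for 32 named genes. Of these genes 13 have another tested probe, 17 such probes in all, and none of the 17 was called. Coa8 was at -1.13 on the probe of the group and at -0.02 on its other probe, and Pde4c at -1.03 and -0.06. Without the 66 probes 2530 passed, 799 higher and 1731 lower. More widely, 491 of the 1173 called genes have a second tested probe, and for 124 of them such a probe points the other way.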

How the data were processed

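Blood mononuclear cell RNA was hybridised against a universal mouse reference RNA on 2-colour Agilent arrays, 1 array per mouse. Per the file headers, the authors quantified spots with Agilent Feature Extraction (version 10.7.3.1). Their deposited spot tables hold median, background and processed intensity for both channels, a log10 ratio and spot flags. A deposited table of log2 ratios, which the authors computed and which follows Cy3 over Cy5 of the processed signals, served as an alternative, and the study analysed its data in GeneSpring with a moderated test and Benjamini-Hochberg correction. No matrix column was left unmapped (0). The labels name Cy5 as the blood channel, but the intensities place blood RNA in Cy3 (median correlation between arrays of 0.957 for Cy3 and 0.992 for Cy5), so that ratios are Cy3 over Cy5. If the labels are right, every direction turns round.

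Background was corrected on the median spot intensities with normexp (offset 50), and ratios were loess normalised within arrays (limma 3.58.1, R 4.3.3). Control spots and spots marked as outliers were left out and spots of a probe averaged. The offset pulls the ratios of dim probes towards 0. Of 56605 probes, 32994 were matched by accession to 22911 RefSeq symbols (GRCm38.p6). A probe entered the test when Feature Extraction called its Cy3 signal well above background on a fraction of 0.5 or more of either group's arrays. P17 and P12 hyperoxia (12 and 10 arrays) were compared with lmFit and eBayes, Benjamini-Hochberg adjusted p below 0.05. Changes in normoxia and differences came from a fit of all 6 groups. The fits were checked on simulated data. Array measures were compared with 100000 resamples (scipy 1.17.1), or exactly under 10 arrays. The number of arrays limits the precision, and groups came from the labels.

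Named are the 12 greatest rises and the 12 greatest falls with the same direction in 3 scalings, up to 4 called members of each list and its defining members, the 6 smallest p of the difference, and Deptor, Nol4 and Trp53. The lists and members were chosen with earlier results of these data known. Genes of the stefin, eosinophil and basophil, B cell receptor, aryl hydrocarbon receptor and cold-inducible lists and of the shared probe group were chosen after their values were seen. Lists were counted and not tested. Promoters were printed for the stefin list alone, a choice made after the values were seen. The eosinophil, aryl hydrocarbon receptor and cold-inducible lists also had at least 50% of their tested genes called. Some genes that these rules would name are not reported here.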

Additional observations from a re-analysis of the deposited data

Results flagged for a closer look

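In the P12 hyperoxia group 4 of the measures checked (65 named genes and 33 lists) had a mouse apart from the rest by the gap to its nearest neighbour over the range, a check that chance passes in about 1 of 20 groups. The gap was 0.492 of the range for Retnlg (2.09, with the next mouse at 3.68) and 0.506 for Vpreb3 (2.64, with the next at 3.65). It was 0.588 for the mean of the platelet list (0.36, with the next at 2.96) and 0.514 for that of the endothelial list (0.25, with the next at 1.15), both in replicate 10.

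The change from P12 to P17 differed between hyperoxia and normoxia for 10 of the genes named or listed by the test of the difference itself. The difference was 0.73 for Trp53, -0.75 for Cul4b, 0.61 for Nrd1, 0.66 for Cdk13, -0.47 for Pcm1, -0.55 for Zc3h6, -0.42 for Tsc1, 0.67 for Sars, -1.01 for Tiparp and -1.11 for Hnrnpdl. The second scan day held 8 of 12 arrays of P17 normoxia and 1 of 12 of P17 hyperoxia. With scan day as a block, 9 probes passed the test of the difference in place of 70.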

How the results depend on the processing

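Against 2636 probes called, the count was 1623 after median centring, 1714 with no filter, 1269 with slide as a block, 1446 on scan day 1 alone, 8289 with array weights, 229 with the share of probes above background as covariate, 1370 with an erythroid covariate, 4768 with all 6 groups in 1 fit and 9 with median centring and slide as a block (added after seeing the data). Leaving out each mouse gave 1344 (P12 replicate 3) to 5017 (P17 replicate 7), with 1522 and 1531 without P12 replicates 1 and 2, 1587, 1693, 1555 and 1591 without P17 replicates 2, 5, 9 and 10, and 4466 without P17 replicate 3. Cy5 alone gave 0 in limma (1491 at an unadjusted p below 0.05). All 2636 probes kept their direction without any 1 mouse, with slide as a block and on scan day 1; 2491 did after median centring. Against 70 probes with a difference from normoxia, the count was 0 after median centring (2874 at an unadjusted p below 0.05), 303 with Cy3 alone, 40 with no filter, 5 with slide and 9 with scan day as a block, 5823 with array weights and 2505 with the share of probes above background as covariate. The causes were not tested.

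Some named genes changed sign. After median centring Trp53 was at -0.040, Nrd1 at -0.10, Cdk13 at -0.23 and Deptor at -0.21, and with slide as a block too at -0.065, -0.14, -0.21 and -0.23, with P4ha1 at -0.019. Deptor was at -0.22 with the scanner software's signals and the authors' matrix, -0.19 with slide added (Retnlg 0.084), -0.060 with Cy3 alone, and -0.029 to 0.106 without 1 mouse, below 0 without P12 hyperoxia replicate 1 (-0.017) or P17 hyperoxia replicate 11. In Cy5 alone, read as reference, 24 turned: Atf5 -0.0011, Cpox -0.054, Pck2 -0.14, Mmp19 -0.0024, Stfa2 0.034, Csta2 0.0020, Cstdc4 0.00075, Igfbp4 -0.076, Ddx58 0.065, Pfkl -0.086, P4ha1 -0.038, Sod1 -0.024, Shmt2 -0.020, Aars -0.12, Hsph1 -0.087, Il6 0.00052, Atp5c1 0.0084, Uqcrfs1 0.020, Afp -0.040, Igf2bp3 0.016, Cul4b 0.00090, Nrd1 -0.025, Cdk13 -0.052 and Deptor -0.0014. Of 61 called genes picked by the naming rule 8 stayed called with the share of probes above background as covariate, 30 after median centring, 37 with slide as a block and 40 on scan day 1. The P12 and P17 hyperoxia titles share no mouse number. Those of P12 hyperoxia and P12 normoxia share 10, and same-numbered arrays had correlations of -0.64 to 0.71 of their deviations, not all above 0.1. With that number as a random replicate block, added after seeing the data, 238 probes passed the test of the difference. No paired analysis was possible for the change in hyperoxia because its groups share no number. Prg2 and Epx stood above background on 4 and 1 of 12 P17 arrays, which limits the size of their falls.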

Other observations

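The P28 groups, which entered only the fit of all 6 groups, put some of the named genes in a longer course. These values were chosen after they were seen and no test was made on them. In hyperoxia the mean log2 ratio of Mthfd2, which oxidises methylene-tetrahydrofolate in mitochondria, was -0.24 ± 0.65 (SD, n = 10) on P12, 1.21 ± 0.96 (n = 11, with the spot left out on 1 array) on P17 and -0.32 ± 0.57 (n = 10) on P28. In normoxia it was 1.12 ± 1.12 (n = 11), 1.69 ± 1.09 (n = 12) and -0.16 ± 0.48 (n = 11). Shmt2, its partner in serine and folate metabolism, was at -1.88, -1.04 and -2.17 in hyperoxia (SD 0.27, 0.59 and 0.27) and at -1.34, -1.22 and -2.37 in normoxia (SD 0.58, 0.49 and 0.17). For both genes the P28 means were the lowest of the 3 ages in each oxygen group.

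The B cell genes Tnfrsf13c and Cd72 had another order. Tnfrsf13c, the receptor of the survival factor BAFF, was at 3.31, 2.16 and 3.02 on P12, P17 and P28 in hyperoxia (SD 0.65, 0.63 and 0.41) and at 2.77, 2.61 and 2.67 in normoxia (SD 0.91, 0.59 and 0.56). Cd72, a B cell co-receptor, was at 2.31, 1.28 and 2.29 in hyperoxia (SD 0.69, 0.58 and 0.31) and at 1.84, 1.93 and 1.81 in normoxia (SD 0.98, 0.64 and 0.46). The P17 hyperoxia group had the lowest mean of the 6 groups for both genes.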
